A study of Mus musculus with 6 samples.

Results

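Lag3, Havcr2, Tox, Cd160, Vsir, Nr4a2, Cd274 and Pdcd1lg2 encode inhibitory receptors, ligands and transcription factors of T cell checkpoints. They were chosen by name, and all 8 were among the 28945 genes of the expression table. The RNA came from splenic CD4+ T cells after purification. The control strain C57BL/6J (CONT) and the strain db/db (DM) gave 3 libraries each. Mice of the db/db strain carry a mutated leptin receptor, which makes them obese and diabetic. The labels name no agent for either group. Age, sex and the number of animals behind a library were not given in the sources used here. Consequently p-values rest on how far libraries of a group differ, and part of that spread may be technical. The comparison asks how expression in splenic CD4+ T cells of db/db mice differed from that of C57BL/6J mice. Strain, obesity and diabetes coincide in these groups, so their effects cannot be told apart.

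Checkpoint receptors reach the T cell surface after activation and damp signals of the antigen receptor, so that responses end and self-tolerance is kept. Their ligands lie on antigen-presenting cells, on tissue cells and in part on T cells themselves: PD-L1 (Cd274) and PD-L2 (Pdcd1lg2) bind the receptor PD-1, and LAG-3 (Lag3) binds MHC class II. Under lasting antigen exposure several of these receptors are held together, in a state called exhaustion, which in CD8 T cells depends on the nuclear factor TOX, with NR4A factors acting in the same setting. Many of the genes are also active outside T cells, among them Havcr2 (TIM-3) in macrophages, dendritic cells and mast cells, Cd160 in natural killer cells, and Vsir (VISTA) in myeloid cells.

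Expression was given as FPKM, fragments scaled for transcript length and library size, so levels of different genes can be compared. The FPKM of all genes summed to between 248070 and 410282 per library, and relative depth lay between 0.799 and 1.12. CONT replicate 1 stood apart, with a mean correlation to its own group of 0.878 on log2(FPKM + 1) against 0.915 to 0.949 for the other libraries. Defining markers of the labelled cells were present: all 15 genes of CD4 T cell identity reached the level tested, and Cd4 itself ran from 149 to 220 FPKM across CONT and from 82.4 to 134 FPKM across DM. The summed identity genes ran from 1328 to 1490 FPKM in CONT and from 808 to 1222 FPKM in DM. Markers of several other blood cells were higher in DM, and their values stand beside the genes concerned. In bulk RNA, fewer cells of a type and less RNA per cell cannot be told apart.

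None of the 8 genes passed the test between DM and CONT. Genes were tested if their mean reached 1 FPKM in either group, which held for 7 of the 8, all but Nr4a2. A gene was called at an adjusted p below 0.05. Every adjusted p is a Benjamini-Hochberg value from limma over the genes tested. These were 13106 genes unless another filter is named, and 28945 where every gene was kept. Means are given ± SD over the 3 libraries of a group and fold changes ± SE. Over all tested genes 1.52% were called and 1.27% were called as higher in DM, so a count of 0 among 7 is near that background. At an unadjusted p below 0.05 limma gave 1 of the 7 (Havcr2), against 16% of all tested genes, or 9.77% counting those higher in DM. Groups that did not overlap were found for 2 of the 7 and for 27.1% of all tested genes. The DM libraries lay entirely above the CONT libraries for 1 gene (Havcr2; background 13.8%) and entirely below for 1 (Vsir; background 13.2%). The median log2 fold change of the 7 was -0.30, against -0.01 over all tested genes, with 2 of 7 above 0 (Havcr2 and Cd160) where 48.8% of all tested genes were. Of the 5 genes below 0, all were above 0 when libraries were scaled by the CD4 T cell identity genes (0.031 for Cd274 to 0.18 for Lag3), a scaling that moved the median of all genes to 0.46.

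**Figure D1:**
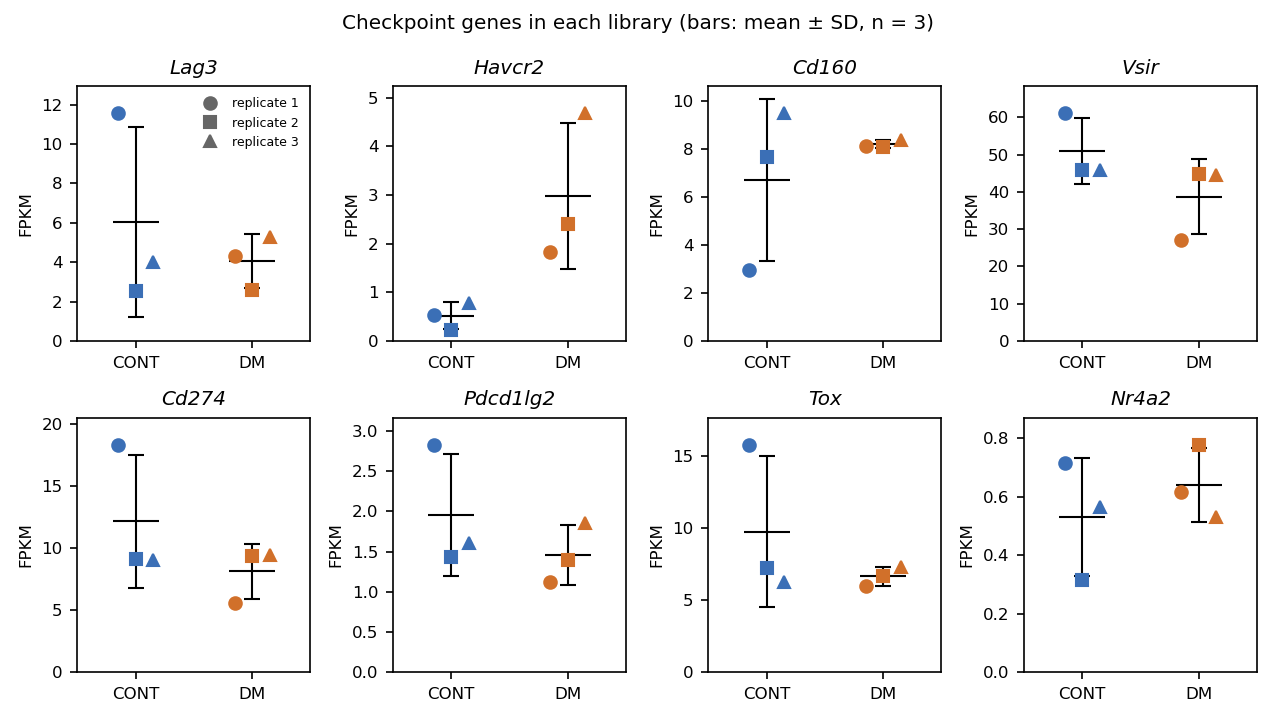
FPKM of the 8 genes in each library, with 1 panel per gene, FPKM on a linear axis from 0, CONT in blue and DM in orange, marker shape for the replicate number, and bars for the mean ± SD of 3 libraries. The DM libraries of Havcr2 (1.84 to 4.68 FPKM) lie above all CONT libraries (0.231 to 0.788 FPKM), while Lag3, Vsir, Cd274, Pdcd1lg2 and Tox are highest in CONT replicate 1.

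Havcr2 encodes TIM-3, a surface receptor that marks exhausted and interferon-gamma-producing T cells and is also made by myeloid cells. It had the largest difference of the 7 tested genes. Its level was 0.535, 0.231 and 0.788 FPKM in CONT replicates 1, 2 and 3 and 1.84, 2.40 and 4.68 FPKM in DM replicates 1, 2 and 3. Every DM library was above every CONT library, and DM replicate 3 was the highest. The means were 0.518 ± 0.279 FPKM in CONT and 2.97 ± 1.5 FPKM in DM, a ratio of 5.74. On log2(FPKM + 1), a scale that understates the change of low genes, the fold change was 1.34 ± 0.31 (SE), which missed the threshold over all genes (adjusted p = 0.102 in limma). In the authors' deposited table, made by a test that no source used here states, Havcr2 had a q-value of 0.00045 and carried the authors' flag of significance. Scaled by the CD4 T cell identity genes, Havcr2 was called (1.65 with adjusted p = 0.0238 in limma), as it was with library quality weights (1.46 with adjusted p = 0.0187 in limma). The flag of significance was set in the authors' deposited table for 3172 of the 28945 genes and for no other of the 8. All genes with that flag had an unadjusted p below 0.05 and an absolute log2 fold above 1 there, while 1439 genes had a q-value below 0.05.

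Like Havcr2, the summed markers of macrophages, of dendritic cells and of basophils and mast cells were higher in each DM library than in any CONT library. The macrophage and monocyte list, in which all 18 genes had a log2 fold change above 0 and 3 passed the test, summed to 38.7 to 122 FPKM in CONT and 370 to 1351 FPKM in DM, and its most abundant gene, the lysozyme Lyz2, was at 14.9 to 29.6 and 170 to 845 FPKM. The dendritic cell list (all 6 tested of 9 above 0, 1 called) summed to 1.82 to 2.54 FPKM in CONT and 11.5 to 30.6 FPKM in DM. The basophil and mast cell list (all 7 above 0, 4 called) summed to 3.19 to 7.90 and 68.9 to 334 FPKM. None of these markers was at 0 in all 6 libraries, and Clec10a, Batf3 and Fcer1a were each at 0 in 1. Like Havcr2, the macrophage and dendritic cell sums were highest in DM replicate 3, whereas the basophil and mast cell sum was highest in DM replicate 1. Between DM replicates 1 and 2 the order differed, with Havcr2 at 1.84 and 2.40 FPKM. There the macrophage sum was at 698 and 370 FPKM and the dendritic cell sum at 15.3 and 11.5 FPKM. The basophil and mast cell sum was at 334 and 129 FPKM. The natural killer list (3 of 5 tested genes above 0, none called) summed to 23.3 to 28.7 FPKM in CONT and to 27.4 to 192 FPKM in DM, with the highest value again in DM replicate 3, and its gene Klra8 was at 0 in all 3 DM libraries. Most of each DM sum came from Gzma, at 20.9, 14.3 and 154 FPKM in DM replicates 1 to 3 and 2.45 to 3.02 FPKM in CONT. Ncr1 (1.58) and Klrk1 (0.20) were also above 0 on the log2 scale, while Klrb1c (-1.25) and Prf1 (-0.52) were below 0. The part of these cells in the Havcr2 difference was not tested. Without DM replicate 3 the log2 fold change of Havcr2 was 1.05 ± 0.26 (SE; adjusted p = 0.221 in limma), and with the mean log2 level of 78 markers of other cells added to the fit it was 0.49 ± 0.57 (SE), in a fit where that level is itself higher in each DM library (2.88 to 4.57 on the log2 scale) than in any CONT library (1.66 to 1.95).

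**Figure D2:**
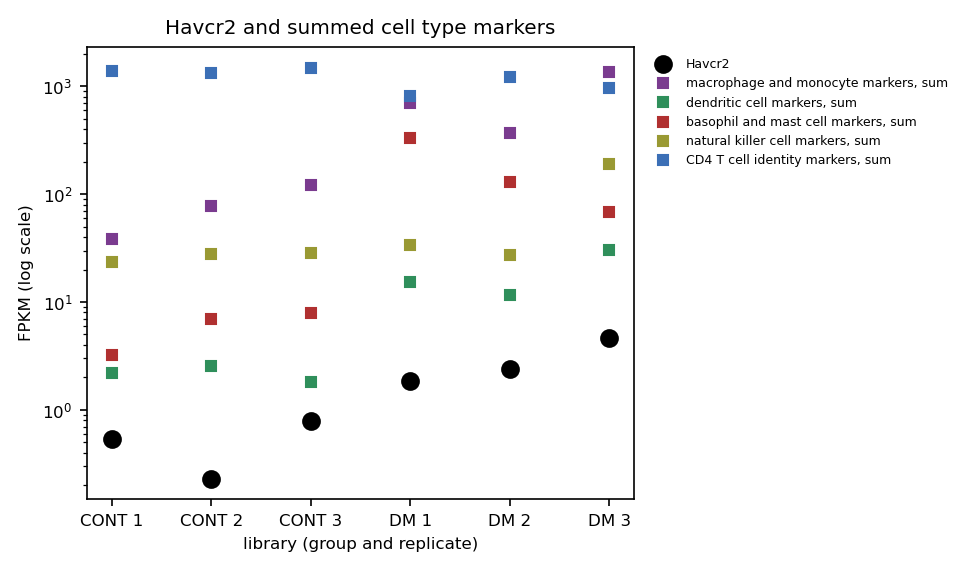
FPKM on a log axis for Havcr2 (black) and for the summed markers of 5 cell types, by library. Havcr2, macrophage and dendritic cell markers are higher in each DM library than in any CONT library, and CD4 T cell identity markers are lower.

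The promoter of Havcr2 is shown because the gene was the only one of the 8 with all DM libraries above all CONT libraries. Havcr2 lies on the plus strand of chromosome 11 (46454935 to 46481255, GRCm38, GENCODE M21). The RefSeq window on GRCm38.p6, chr11:46454681-46454980, plus strand, holds the 250 bases before the RefSeq start of the gene (46454931) and the 50 bases from it. That start lies 4 bases before the GENCODE start. RefSeq windows were found for 6 of the 8 genes. Capitals mark matches, on either strand, to motifs of factors known in activated T cells or myeloid cells: IRF (GAAA and GAAA with 2 bases between them), STAT sites of the GAS type (TTCNNNGAA), AP-1 (TGANTCA), the PU.1 type of ETS site (GAGGAA) and NFAT (GGAAAA).
Havcr2: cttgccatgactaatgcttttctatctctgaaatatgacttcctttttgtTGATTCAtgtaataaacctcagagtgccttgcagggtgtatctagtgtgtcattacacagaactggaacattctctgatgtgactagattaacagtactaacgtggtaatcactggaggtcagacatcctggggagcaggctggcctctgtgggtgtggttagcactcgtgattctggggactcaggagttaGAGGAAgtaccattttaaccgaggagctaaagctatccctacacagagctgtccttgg
It holds an AP-1 match that starts 200 bases before the RefSeq start and a GAGGAA match that starts 8 bases before it. Over 32851 RefSeq promoter windows of the same length, 7.81% hold the AP-1 letters and 28.3% hold GAGGAA. A match is a description of letters and not of a bound site.

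Lag3 (chr6:124904361-124911705, minus strand) encodes a CD4-like receptor that binds MHC class II and inhibits CD4 T cells. It was at 11.6, 2.54 and 4.0 FPKM in CONT replicates 1 to 3 and at 4.31, 2.60 and 5.27 FPKM in DM replicates 1 to 3. CONT replicate 1 was above all others and the remaining 5 libraries of the groups overlapped. The means were 6.04 ± 4.84 and 4.06 ± 1.35 FPKM, with a log2 fold change of -0.30 ± 0.47 (SE; adjusted p = 0.706 in limma). Without CONT replicate 1 the CONT mean was 3.27 FPKM and the sign turned, to 0.23 ± 0.29 (SE; adjusted p = 0.746 in limma). The class II chains that LAG-3 binds averaged 5.65 ± 1.75 (H2-Ab1) and 4.68 ± 1.19 FPKM (H2-Aa) in CONT and 48.1 ± 53.1 and 59.1 ± 77.5 FPKM in DM. DM replicate 3 was at 109 and 149 FPKM, and without it the DM means were 17.5 and 14.4 FPKM. Neither passed the test (adjusted p = 0.179 and 0.236 in limma), and class II is made by B cells, dendritic cells and macrophages, the latter 2 with the marker sums given beside Havcr2. B cell markers (9 of 9 tested genes above 0, none called) summed to 5.5 to 23.8 FPKM in CONT and 11.2 to 335 FPKM in DM. DM replicate 3 alone lay above the CONT range, and the part of these cells in the class II levels was not tested.

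Cd160 (chr3:96798763-96829351, minus strand) encodes a glycolipid-anchored receptor for HVEM (Tnfrsf14), known from natural killer, CD8 and innate-like T cells. Its DM libraries were close together, at 8.13, 8.07 and 8.37 FPKM. The CONT libraries were at 2.95, 7.66 and 9.48 FPKM and enclosed all 3 DM values. The log2 fold change was 0.37 ± 0.35 (SE; adjusted p = 0.538 in limma), and without CONT replicate 1 it was -0.052 ± 0.16 (SE). Cd160 was the only gene of the 8 with its lowest value in CONT replicate 1, which 32.5% of all tested genes also had. CD8 T cell markers, Cd8a and Cd8b1, summed to 7.51 to 8.61 FPKM in CONT and 4.76 to 51.7 FPKM in DM, with the high value in DM replicate 3, where Cd160 was at 8.37 FPKM. HVEM averaged 24.3 ± 14.7 FPKM across CONT against 13 ± 0.663 FPKM across DM (adjusted p = 0.367 in limma), and without CONT replicate 1 its CONT mean was 16.1 FPKM. An exon of Cd160 overlaps one of Pdzk1 on the other strand, and no source used here states how strand was treated, but Pdzk1 was at no more than 0.0568 FPKM.

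Vsir (chr10:60346851-60372684, plus strand) encodes VISTA, a receptor of the B7 family that keeps naive T cells quiescent and is made by T cells and by myeloid cells. It was by far the most abundant of the 8, within the top 7.01% of tested genes by mean level. Its values were 61.1, 45.8 and 45.8 FPKM in CONT replicates 1 to 3 and 27.0, 44.8 and 44.4 FPKM in DM replicates 1 to 3. All DM libraries were below all CONT libraries, although DM replicates 2 and 3 lay only just below CONT replicates 2 and 3 and DM replicate 1 was far lower. The means were 50.9 ± 8.83 and 38.7 ± 10.2 FPKM, with a log2 fold change of -0.41 ± 0.27 (SE; adjusted p = 0.414 in limma). The genes of CD4 T cell identity had lower levels in DM as well, with a median log2 fold change of -0.47 and 1 of 15 above 0. Relative to the median of all genes, Vsir was at -0.31 when libraries were scaled by these identity genes. Vsir lies inside Cdh23 on the other strand without shared exons.

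The PD-1 ligands Cd274 (chr19:29367455-29388095) and Pdcd1lg2 (chr19:29410919-29471161) are neighbours on the plus strand of chromosome 19. They lie 22823 bases apart, with no annotated gene lying wholly within that gap. Genes that overlap either ligand were not counted there. Cd274, the widely made ligand that interferon-gamma induces, was at 18.3, 9.08 and 9.04 FPKM in CONT and 5.60, 9.35 and 9.44 FPKM in DM, in the order of replicates. It was high in CONT replicate 1 and low in DM replicate 1, and the other 4 libraries lay between 9.04 and 9.44 FPKM. Pdcd1lg2, the ligand mainly of dendritic cells, macrophages and some B cells, was at 2.83, 1.43 and 1.61 FPKM in CONT and 1.13, 1.39 and 1.86 FPKM in DM. Its highest and lowest libraries were the same as those of Cd274. The ratio of Cd274 to Pdcd1lg2 stayed between 4.98 and 6.70 in the 6 libraries. No background over other gene pairs was computed for this range. The highest library of both genes, CONT replicate 1, was also the highest for 40.1% of all tested genes. The log2 fold change was -0.48 ± 0.32 (SE; adjusted p = 0.411 in limma) for Cd274 and -0.25 ± 0.25 (SE; adjusted p = 0.559 in limma) for Pdcd1lg2. Without CONT replicate 1 these were -0.17 ± 0.24 and -0.044 ± 0.20 (SE). PD-1 itself (Pdcd1), the receptor of both, averaged 14.0 ± 4.07 FPKM across CONT against 17.8 ± 2.53 FPKM across DM (adjusted p = 0.443 in limma). Cd274 shares exon sequence with an antisense transcript, AC119228.1, which was at 3.59 FPKM in CONT replicate 1 and 0.390 to 0.965 FPKM in the other libraries; without strand, reads of the pair cannot be told apart.

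The promoter windows of both ligands are shown since the genes are adjacent. They are RefSeq windows of GRCm38.p6 on the plus strand, chr19:29367188-29367487 for Cd274 and chr19:29410669-29410968 for Pdcd1lg2, marked in the same way. The RefSeq start is 17 bases before the GENCODE start for Cd274 and is the same base for Pdcd1lg2.
Cd274: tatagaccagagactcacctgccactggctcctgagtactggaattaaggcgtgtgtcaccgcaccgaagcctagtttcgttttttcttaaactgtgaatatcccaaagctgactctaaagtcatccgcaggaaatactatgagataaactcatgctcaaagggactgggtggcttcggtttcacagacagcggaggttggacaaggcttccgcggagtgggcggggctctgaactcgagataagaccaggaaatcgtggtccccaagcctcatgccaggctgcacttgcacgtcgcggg
Pdcd1lg2: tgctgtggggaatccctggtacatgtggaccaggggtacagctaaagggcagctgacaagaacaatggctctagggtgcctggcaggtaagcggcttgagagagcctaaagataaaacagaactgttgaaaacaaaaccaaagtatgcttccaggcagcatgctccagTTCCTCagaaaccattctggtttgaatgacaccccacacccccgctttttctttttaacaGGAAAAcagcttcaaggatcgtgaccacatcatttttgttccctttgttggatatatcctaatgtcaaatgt
The Cd274 window held none of the 5 motifs, which says only that these letters are not in this window. The Pdcd1lg2 window held GAGGAA on the minus strand, read as TTCCTC, 82 bases before the RefSeq start and GGAAAA 22 bases before it, letters found in 28.3% and 23.4% of all windows.

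Tox (chr4:6686353-6991557, minus strand) encodes a nuclear factor of the HMG box family needed for CD4 T cell development in the thymus and for exhausted CD8 T cells. It was at 15.8, 7.25 and 6.26 FPKM in CONT replicates 1 to 3 and at 6.00, 6.71 and 7.32 FPKM in DM replicates 1 to 3. Apart from CONT replicate 1, the 5 libraries spanned a factor of 1.22. The log2 fold change was -0.39 ± 0.32 (SE; adjusted p = 0.490 in limma) and -0.015 ± 0.17 (SE) without CONT replicate 1. Exons of Tox overlap the antisense gene Gm11802, which was at no more than 0.193 FPKM. Nr4a2 (chr2:57106830-57124003, minus strand) encodes an orphan nuclear receptor that antigen receptor signals induce early. It was at 0.714, 0.315 and 0.566 FPKM in CONT and 0.615, 0.777 and 0.530 FPKM in DM, so the groups overlapped and neither mean reached the level tested. Tested with every gene kept, Nr4a2 had a limma adjusted p of 0.743 (Benjamini-Hochberg) and a log2 difference of 0.10.

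**Figure D3:**
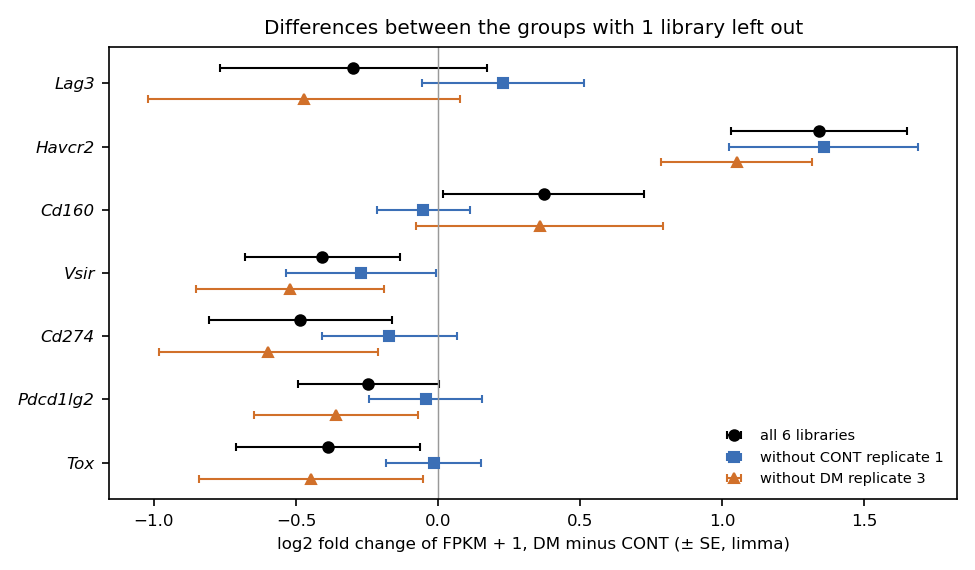
Log2 fold change of FPKM + 1, DM minus CONT, with its SE from limma, for the 7 tested genes in all 6 libraries (black), without CONT replicate 1 (blue) and without DM replicate 3 (orange). Havcr2 is above 1 in all 3 fits. Without CONT replicate 1, Tox and Pdcd1lg2 lie close to 0 and Lag3 and Cd160 change sign.

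Of the 8 genes, 5 had their highest value in CONT replicate 1 (Lag3, Tox, Vsir, Cd274 and Pdcd1lg2), where 40.1% of all tested genes peaked. The level there was 3.09 times the mean of the other 5 libraries for Lag3, 2.35 times for Tox, 2.15 times for Cd274, 1.9 times for Pdcd1lg2 and 1.47 times for Vsir. In CONT the order of mean levels was Vsir, Cd274, Tox, Cd160, Lag3, Pdcd1lg2, Nr4a2 and Havcr2. Vsir stood clear of Cd274, and Pdcd1lg2 stood clear of Nr4a2, while all other neighbours in this order overlapped in their libraries. In DM the order was Vsir, Cd160, Cd274, Tox, Lag3, Havcr2, Pdcd1lg2 and Nr4a2. There Vsir was clear of Cd160, Tox of Lag3 and Pdcd1lg2 of Nr4a2, and the other neighbours overlapped. Havcr2 was thus the lowest of the 8 by mean in CONT, level with Nr4a2, and overlapped Lag3 and Pdcd1lg2 in DM.

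Among other inhibitory receptors 1 of 15 tested genes rose, none fell and 14 did not pass. The median log2 fold change was 0.65. Over all tested genes 1.27% were called as higher in DM and the median was -0.01. In the list 12 of 15 were above 0, among them Pdcd1 (0.35), Tigit (0.36) and Btla (0.064). Cd244a (1.40), Pilra (0.89) and Siglecg (1.28) were highest in DM replicate 3. Cd96 (-0.30), Pvrig (-0.29) and Cd5 (-0.74) were below 0. The riser was Klrg1, a lectin-like receptor of effector and memory cells, from 3.08 ± 0.463 to 10.6 ± 1.86 FPKM (1.51 on the log2 scale; adjusted p = 0.0171 in limma). The call of Klrg1 ended without CONT replicate 2, or without any 1 of the DM libraries (adjusted p = 0.0529 to 0.0803 in limma), and with total scaling or no filter on low values (adjusted p = 0.0790 and 0.0791 in limma). Klrg1 is also made by natural killer cells, whose marker sums, in DM mostly Gzma, stand beside Havcr2 and whose part was not tested. Ctla4, which competes with CD28 for its ligands, was at 27.0 ± 3.45 and 51.8 ± 1.88 FPKM, and missed the threshold (adjusted p = 0.0839 in limma). Lilrb4a and Cd300a, inhibitory receptors mainly of myeloid cells, averaged 2.55 ± 0.720 and 0.236 ± 0.0688 FPKM across CONT, against 13.9 ± 9.95 and 3.44 ± 2.92 FPKM across DM (adjusted p = 0.0991 and 0.135 in limma). DM replicate 3 was the highest for both, and without it the DM means were 8.21 and 1.76 FPKM. Lilrb4a has a near-identical copy that may share its reads, which makes the values uncertain.

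Among 17 tested ligand genes of other checkpoints, with a median log2 fold change of 0.58, 1 rose and none fell. Over all tested genes the median was -0.01 and 1.27% were called as higher in DM. In the list 12 of 17 were above 0. Among these, H2-Aa (2.55), H2-Ab1 (2.37), H2-Eb1 (2.25) and Ceacam1 (1.20) were highest in DM replicate 3. Icosl, the gene at the median, was at 1.95, 2.16 and 8.84 FPKM in DM replicates 1 to 3 and 1.29 to 3.43 FPKM in CONT. Below 0 were H2-Q7 (-1.44), Pvr (-0.82), Tnfrsf14 (-0.70), Selplg (-0.34) and H2-T23 (-0.12). Lgals3, a galectin that binds LAG-3 and is abundant in macrophages, rose from 2.56 ± 0.465 to 26.4 ± 11.8 FPKM (2.86 on the log2 scale; adjusted p = 0.0123 in limma). The call of Lgals3 ended without DM replicate 1 and with no filter on low values (adjusted p = 0.0675 and 0.0672 in limma). The macrophage and monocyte markers given beside Havcr2 were higher in the same libraries, and their part in Lgals3 was not tested. Lgals9, a ligand of TIM-3, averaged 60.7 ± 14.6 FPKM across CONT against 63.9 ± 19.3 FPKM across DM (adjusted p = 0.911 in limma). Selplg, a partner of VISTA at acid pH, was at 74.4 ± 2.48 and 59.6 ± 12.6 FPKM (adjusted p = 0.436 in limma). The nonclassical class I gene H2-Q7 was at 232 ± 104 and 83.3 ± 30.5 FPKM (adjusted p = 0.168 in limma), and its level is uncertain since class I copies share reads.

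None of 13 costimulatory receptors passed the test, with a median of -0.10. An unadjusted p below 0.05 (limma) was found for 2 of the 13, against 16% of all tested genes. The 2 were Cd40lg, the helper signal to B cells, at 43.0 ± 11.2 and 22 ± 7.95 FPKM, and Cd28 at 54.5 ± 24.5 and 26.7 ± 7.0 FPKM in CONT and DM. Their adjusted p was 0.221 and 0.270 (limma). Without CONT replicate 1 the CONT mean of Cd28 was 40.3 FPKM. Next by adjusted p was Cd226, an activating receptor that shares ligands with TIGIT, at 20.5 ± 3.10 and 15.6 ± 3.98 FPKM (adjusted p = 0.384 in limma). Of 17 other transcription factors linked to exhaustion none passed, with 1 at an unadjusted p below 0.05 (limma), Tcf7, a factor of naive and stem-like cells, at 382 ± 154 and 185 ± 49.0 FPKM. Bach2 was at 12.1 ± 9.66 and 4.12 ± 1.49 FPKM, and Batf at 19.7 ± 9.07 and 30.9 ± 5.87 FPKM, and neither passed. Without CONT replicate 1, the highest library for it, the CONT mean of Bach2 was 6.60 FPKM. The lower sums of CD4 T cell identity genes in these DM libraries stand above, and their part was not tested. Of 19 genes of the response to interferon-gamma, an inducer of Cd274, 1 rose and none fell, with a median of -0.11. Over all tested genes 1.27% were called as higher in DM. The riser was the GTPase Gbp3, from 10.7 ± 1.24 to 57.9 ± 1.18 FPKM (2.34 on the log2 scale, adjusted p = 0.00315 in limma). Gbp3 stayed past the threshold with each library left out in turn (adjusted p = 0.00395 to 0.0325 in limma). Its relative Gbp4 was at 32.7 ± 6.34 and 22.7 ± 3.91 FPKM, and the chemokine Cxcl10 at 1.08 ± 0.335 and 2.12 ± 0.135 FPKM, neither past the test. The chemokine Cxcl9 did not pass either, at 0.591 ± 0.726 and 1.72 ± 0.687 FPKM, and without CONT replicate 3 its CONT mean was 0.177 FPKM.

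**Figure D4:**
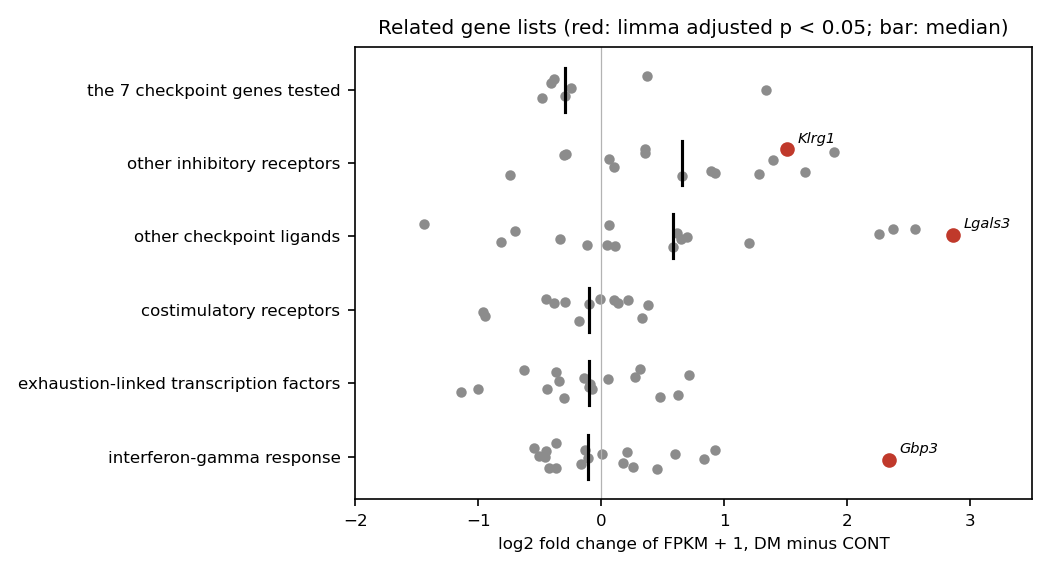
Log2 fold change of FPKM + 1, DM minus CONT, of the tested genes of 6 lists, with 1 point per gene, genes past a limma adjusted p of 0.05 in red and the median of each list as a bar. The checkpoint genes have no red point, and Klrg1, Lgals3 and Gbp3 are the called genes of the other lists.

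Genes with the most similar pattern were sought among protein-coding genes by the root mean square difference of centred log2(FPKM + 1) over the 6 libraries. Nearest to Havcr2 were Il18 (0.11) and Cx3cr1 (0.15), the latter a gene of the macrophage and monocyte list used here. Nearest to Lag3 were Oasl2 (0.17) and Mx1 (0.20). For Cd274 they were Abcg1 (0.047) and Trim26 (0.069), and for Pdcd1lg2 Blcap (0.024) and Trmu (0.027). For Tox they were Sbsn (0.022) and Idua (0.037), for Vsir Arl5c (0.043) and Btg2 (0.072), and for Cd160 Nt5c (0.036) and Mettl18 (0.056). None of these 14 genes passed the test between DM and CONT. These distances are a description over 6 libraries.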

How the data were processed

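RNA of splenic CD4+ T cells was sequenced after Trizol extraction and Illumina library preparation, per the labels' protocols. The submitters' processing notes name cutadapt 1.9, FastQC and the build GRCm38. For the aligner, the quantifier and the handling of strand and shared reads, nothing was given in the sources used here. Per library, the authors deposited FPKM for 28945 genes under a name that says counts; the values are not whole and their sums differ. Multiplied by transcript length over 15403 genes with 1 transcript, 16.6% to 18.7% of low values fell within 0.02 of a whole step, against 3.39% to 3.6% for the median step size tried, and step sizes gave relative depths; how many reads lie behind a value is unknown, which leaves no basis for intervals of counting error. The authors' deposited columns also hold p-values and q-values, a ratio (fold) of means and its log2; the test behind them is not stated.

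DM was compared with CONT on log2(FPKM + 1) using limma 3.58.1 under R 4.3.3 (trended, robust, no covariate), for the 13106 genes whose mean reached 1 FPKM in either group. Benjamini-Hochberg adjustment ran over all of them. The fit was tested on simulated data, in which log2 changes of size 1 or 2 were added to some genes. It called 12.2% of the changes of size 1, 59.6% of those of size 2 and 0.037% of unchanged genes. A gene that did not pass may therefore still differ. Alternatives in scaling, filter, pseudocount, moderation, covariate, replicate block and left-out libraries were tried. The members, lists and the rule for named genes were chosen with earlier results of these data known. The rule took all members, called genes of each list and up to 3 more by adjusted p, and the most abundant markers. Pdcd1, Tnfrsf14, Lgals9 and Selplg were added after their values were seen, as partners of members. Coordinates are 1-based from GENCODE M21. Of the listed genes, 5 had no row in the table (Vtcn1, Fgl1, Igsf11, Tcrg-C1 and Tcrg-C2) and were not analysed here. The other lists not described in the report had medians of 2.30 over 8 plasma cell genes with 2 called, 2.64 over 10 neutrophil, 2.34 over 8 erythroid and 0.87 over 4 platelet genes with none called; 1 gene of the gamma delta and innate-like T cell list was tested (0.06). Plots used matplotlib 3.10.9 (Python 3.11.15).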

Additional observations from a re-analysis of the deposited data

How the results depend on the processing

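Each of the 7 tested members was recomputed under up to 20 alternatives, 138 values in all, of which 128 kept the direction and the side of the threshold. Havcr2 was above 0 in every alternative; a filter at 5 FPKM left it and Pdcd1lg2 untested. Scaled by the CD4 T cell identity genes, which moved the median of all genes to 0.46, 552 genes were called (529 higher, 23 lower), Havcr2 was called at 1.65 (adjusted p = 0.0238, limma, range over its alternatives 0.0187 to 0.9995), making 1 member called, and 5 others turned sign: Cd274 0.031, Lag3 0.18, Pdcd1lg2 0.11, Tox 0.12 and Vsir 0.15. Relative to that median, these 5 were -0.43, -0.28, -0.35, -0.34 and -0.31; total scaling moved the median to -0.31 and turned no sign of a tested member. With library quality weights, estimated gene by gene since the default estimate did not converge, 871 genes and 1 member were called, Havcr2 at 1.46 (adjusted p = 0.0187, limma), and Lag3 was at 0.35. No filter left 28 calls, and the other-cell covariate 0 calls, with 288 genes at an unadjusted p below 0.05 (limma); Klrg1, Lgals3 and Gbp3 lost their calls there too, at 1.20, 1.57 and 2.36. For Nr4a2, untested, the difference moved to 0.27 with a pseudocount of 0.1 and 0.32 under the CD4 T cell scaling.

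Leaving out 1 library each gave 24 to 187 calls over all genes (24 without DM replicate 1, 63 without DM replicate 3, 82 without CONT replicate 3) and 0 members called throughout, with log2 fold changes of 1.05 to 1.55 for Havcr2, -0.052 to 0.65 for Cd160, -0.69 to 0.23 for Lag3, -0.64 to -0.17 for Cd274, -0.37 to -0.044 for Pdcd1lg2, -0.62 to -0.015 for Tox and -0.53 to -0.17 for Vsir. These fits rest on 5 libraries, and beyond that the cause of the lost calls was not tested. Whether the replicate numbers pair the samples is not stated in the sources used here. Same-numbered libraries had correlations of deviations of -0.36, -0.38 and -0.20, and no library correlated best with its own number. Deviations are centred within each small group, so these correlations depend on each other and cannot decide the pairing. With the replicate block 204 genes and 0 members were called, Havcr2 with an adjusted p of 0.114 (limma).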
